A study of Mus musculus with 18 samples.

Results

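The genes described here are 10 genes through which macrophages display peptides on major histocompatibility complex (MHC) class II: Ciita, H2-Aa, H2-Ab1, H2-Eb1, H2-DMa, H2-DMb1, H2-DMb2, H2-Oa, Cd74 and Ctss. They were taken by name, not by any measured value, from 55401 genes counted in each library, and all 10 were found by gene identifier. RNA sequencing covered 18 libraries in 6 groups of 3, all from cells of mouse origin given lipopolysaccharide (LPS, a bacterial cell wall component) at 5 ng/ml for 6 h, so no group shows unstimulated cells. Mut libraries were peritoneal macrophages of SMIM30-Mut mice, and WT libraries were peritoneal macrophages of wild-type mice of the same strain, C57BL/6J. Mut_AdSmim30 libraries were macrophages of SMIM30-Mut mice that received an adenovirus for SMIM30 overexpression 6 h after seeding and stayed with it for 24 h before LPS. Mut_AdCtrl libraries had a control adenovirus in its place, for the same times. siSmim30 and siCtrl libraries were IC-21 cells, a long-used cell line derived from peritoneal macrophages of the mouse. They were transfected with an siRNA against SMIM30 or with a control for 24 h before LPS. The labels call the libraries of a group triplicates and name no animals, so the p-values below rest on the spread among these libraries and may reflect technical error alone. The mutated bases of the Mut allele, the insert of the control virus and the ages of the mice are not given in the sources used here.

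MHC class II molecules are pairs of an alpha and a beta chain that carry peptides from endosomes to the cell surface, where CD4 T cells read them. Ciita, the class II transactivator, does not bind DNA itself: it joins an assembly of RFX, NF-Y and CREB family proteins on class II promoters and sets whether these genes are transcribed. In macrophages interferon gamma, through JAK kinases and IRF1, is the classical inducer of Ciita. H2-Aa and H2-Ab1 encode the chains of I-A, and H2-Eb1 encodes the beta chain of I-E. Mice of the C57BL/6 background carry no working alpha gene for I-E, and the gene listed as H2-Ea-ps had 0 counts in all 18 libraries. Cd74, the invariant chain, fills the groove of new class II molecules, and Ctss, cathepsin S, cuts it down to a short remnant. H2-DMa pairs with H2-DMb1 or H2-DMb2 to exchange that remnant for peptides, and H2-Oa is the alpha chain of the inhibitor of that exchange.

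The promoter stretches below are shown because their motifs are letters of the sites that the RFX and NF-Y proteins of this assembly bind. Promoter windows of RefSeq, on build GRCm38.p6, were found for 7 of the 10 members (8 windows of 250 bases before the gene start, since H2-DMa had more than 1). Gene starts in this paragraph are those of RefSeq. For H2-DMa, H2-DMb1, H2-DMb2 and H2-Oa they lie inside the gene as annotated for counting. Windows of these genes therefore lie wholly or partly within that annotated gene. The capitals mark GNAAC, letters from the start of the X box that RFX binds, and TGATTGG, the inverted CCAAT core of the Y box that NF-Y binds. The stretches run 5′ to 3′ on the gene's strand. H2-Aa lies at chr17:34287824-34288023 on the minus strand, H2-Eb1 at chr17:34305667-34305866 on the plus strand, and H2-Oa at chr17:34092179-34092340 on the plus strand.
H2-Aa: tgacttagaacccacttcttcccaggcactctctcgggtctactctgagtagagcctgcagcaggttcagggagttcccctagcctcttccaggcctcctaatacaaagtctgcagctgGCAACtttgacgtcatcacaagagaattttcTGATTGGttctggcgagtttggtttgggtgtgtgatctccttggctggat
H2-Eb1: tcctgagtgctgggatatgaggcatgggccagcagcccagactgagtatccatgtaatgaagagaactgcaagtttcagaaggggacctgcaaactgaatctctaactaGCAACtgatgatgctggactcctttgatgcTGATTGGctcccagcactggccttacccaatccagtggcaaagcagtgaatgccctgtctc
H2-Oa: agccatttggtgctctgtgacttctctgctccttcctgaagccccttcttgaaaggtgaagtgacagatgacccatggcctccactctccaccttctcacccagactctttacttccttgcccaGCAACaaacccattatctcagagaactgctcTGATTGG
In H2-Aa the start of TGATTGG lay 31 bases after the start of GNAAC and 50 bases before the gene start. H2-Eb1 had the motifs 30 bases apart, with TGATTGG 61 bases before the start. In H2-Oa they were 31 bases apart, with TGATTGG 45 bases before the start given by RefSeq. H2-DMb1, not printed, had the same arrangement with 31 bases between the motif starts. The H2-DMb2 window held TGATTGG without GNAAC at the searched distance, and the windows of H2-DMa and Ctss held neither TGATTGG nor the pair. TGATTGG, on either strand, was found in 5 of the 8 member windows, against 7.23% of 32851 promoter windows of the same length. GNAAC followed by TGATTGG within 25 to 40 bases, on either strand, was found in 4 of the 8, against 0.362% of all windows. The motifs and their spacing were chosen with these sequences in view, so the counts describe the sequences and test nothing, and a window without these letters says nothing about binding.

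In the annotation of the files (GRCm38, GENCODE M25), 7 members lie together on chromosome 17. H2-Oa is at 34092340-34095234, H2-DMa at 34119541-34139101, H2-DMb2 at 34143307-34151555 and H2-DMb1 at 34153072-34160230, all on the plus strand. H2-Ab1 is at 34257689-34269419 and H2-Eb1 at 34305867-34316674 on the plus strand, and H2-Aa is at 34282744-34287823 on the minus strand. Ciita is at 10480059-10528418 on chromosome 16, Cd74 at 60803848-60812652 on chromosome 18 and Ctss at 95526786-95556403 on chromosome 3, all on the plus strand. Counts cover all exons of a gene, untranslated regions included. H2-DMb1 and H2-DMb2 are near copies. In transcripts of an earlier GENCODE release, 22.7% of the 50-base words of H2-DMb1 also occur in another gene. For H2-DMb2 the share is 24.8%, and most shared words of either gene occur in the other. Read pairs that lie wholly in those stretches cannot be assigned to 1 of the 2 genes, so values of both are uncertain. The other members shared from 0 to 0.488% of their words.

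Libraries held 6855245 to 13456857 assigned read pairs, so a count of 0 in 1 library allows up to 0.223 to 0.438 CPM (counts scaled to the library total), for counting error only. Smim30, listed in the annotation as 2610001J05Rik, checks the labels. Its level was 8.83, 11.4 and 12.03 CPM in siSmim30 libraries, against 22.5, 20.02 and 21.8 CPM in siCtrl libraries (log2 fold change -0.97, SE 0.12, adjusted p = 6.17e-08, edgeR). It was 51.6, 52.5 and 55.1 CPM in Mut_AdSmim30 libraries, against 45.9, 42.2 and 43.8 CPM in Mut_AdCtrl libraries (log2 fold change 0.28, SE 0.06, adjusted p = 0.0052, edgeR). This rise was small for an overexpression virus, and whether RNA of the viral insert is counted in this gene was not tested. Mut libraries averaged 48.7 CPM and WT libraries 48.1 CPM (adjusted p = 0.966, edgeR), so its RNA level does not separate the genotypes. The 8 macrophage markers were detected in every group, with summed levels of 9420 to 11400 CPM in primary cells and 2870 to 3070 CPM in IC-21 cells. In IC-21 siCtrl cells 6 of 8 markers of large peritoneal macrophages were at 0, among them Gata6, the transcription factor that defines these cells. Ribosomal RNA genes held 0.195 to 2.49% of counts.

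The class II genes of LPS-treated WT macrophages ran over a wide range. On a per-length scale (reads scaled by exon length and library total, RPKM), the level in WT libraries was 4658 ± 152 RPKM for Ctss, 166 ± 12.1 RPKM for Cd74, 35.2 ± 1.53 RPKM for H2-Ab1, 23.0 ± 2.82 RPKM for H2-Eb1 and 16.2 ± 0.849 RPKM for H2-Aa (SD, n = 3). The peptide exchange chains were lower, with 7.34 ± 0.605 RPKM for H2-DMb1 and 3.36 ± 0.562 RPKM for H2-DMa in WT libraries (SD, n = 3). Ciita stood at 0.919 ± 0.0671 RPKM, and H2-Oa and H2-DMb2 were near the limit of detection at 0.237 ± 0.0759 and 0.235 ± 0.0465 RPKM (SD, n = 3). Those 2 lowest genes did not differ beyond their spread. The I-A and I-E chains stood between 16.2 and 35.2 RPKM, far above their transactivator on this scale.

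**Figure D1:**
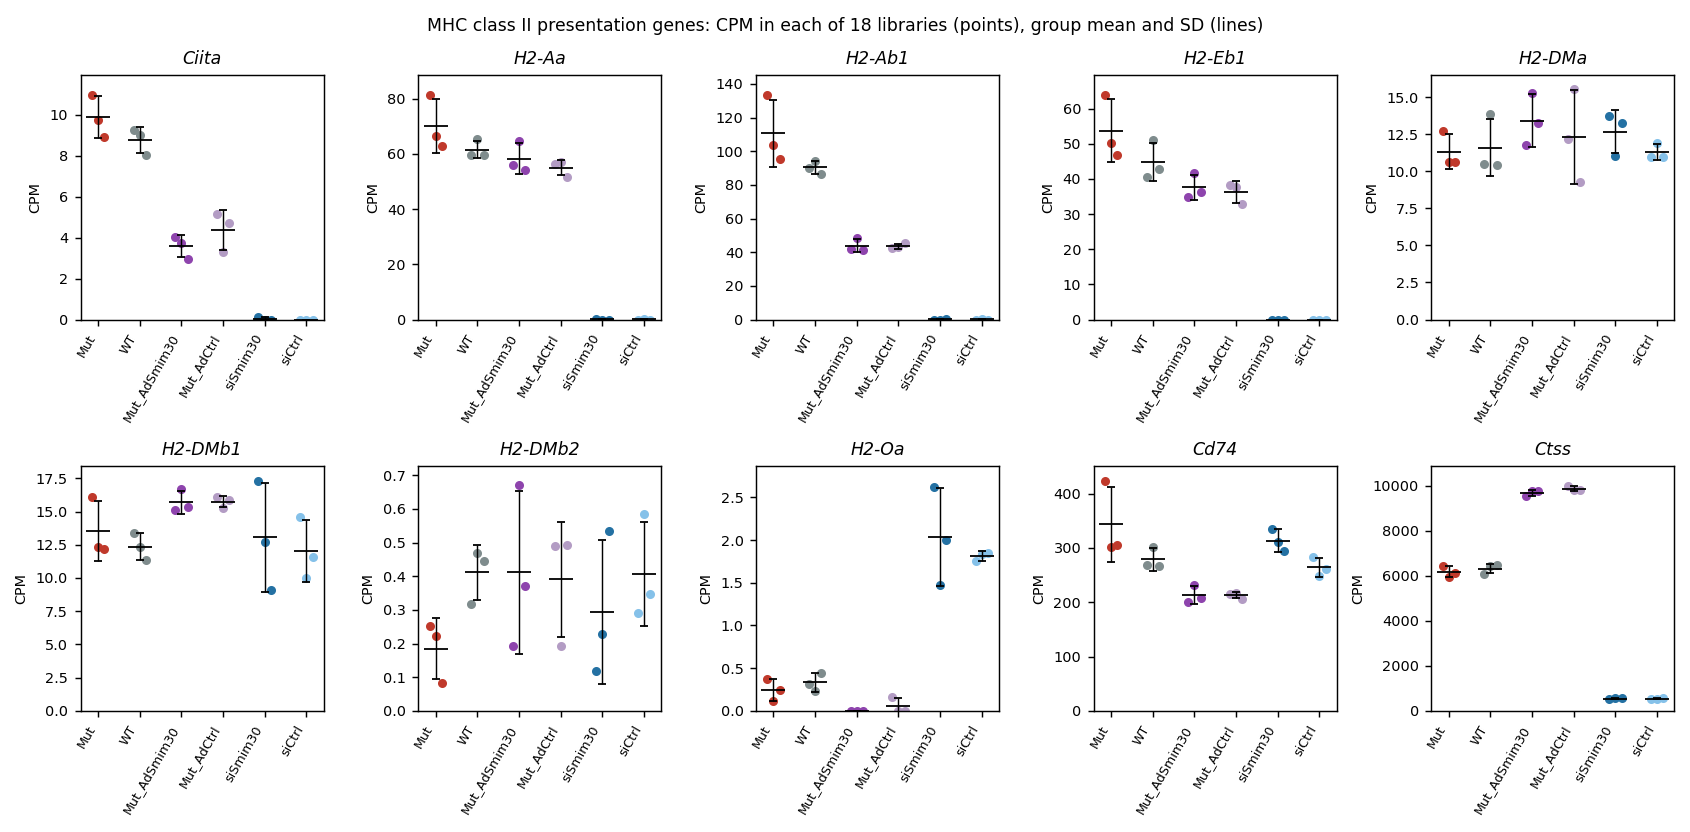
Level of each of the 10 class II genes in CPM (y axis, linear from 0, a different scale in each panel) in 18 libraries; points are libraries, lines are the group mean and SD (n = 3), and each treated or mutant group stands left of its control. Ciita, H2-Aa, H2-Ab1 and H2-Eb1 sit at or near 0 in the IC-21 groups, whereas H2-DMa, H2-DMb1 and Cd74 are present in all 6 groups. The Cd74 group means run from 213 CPM in Mut_AdSmim30 to 343 CPM in Mut.

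The comparison of Mut with WT macrophages asks what the SMIM30 mutation changes under LPS. None of the class II genes tested passed edgeR's test. The chains and Ciita were, on average, slightly higher in Mut libraries, and the Mut libraries were spread widely. H2-Ab1 had 133, 104 and 95.5 CPM in Mut libraries, against 90.3, 94.5 and 86.6 CPM in WT libraries. Every Mut library was above every WT library, but the lowest Mut library was 95.5 CPM and the highest WT library 94.5 CPM. The log2 fold change of H2-Ab1 was 0.28 (SE 0.13, adjusted p = 0.368, edgeR quasi-likelihood test with Benjamini-Hochberg adjustment over 12500 genes). Cd74 had 422, 302 and 305 CPM in Mut libraries, against 268, 302 and 266 CPM in WT libraries. The lowest Mut library and the highest WT library both stood at 302 CPM, with 1 Mut library far above the others, and the log2 fold change was 0.29 (SE 0.17, adjusted p = 0.514, edgeR). H2-Aa had 81.3, 66.4 and 62.8 CPM in Mut libraries, against 59.8, 65.3 and 59.7 CPM in WT libraries (log2 fold change 0.17, SE 0.08, adjusted p = 0.291, edgeR). H2-Eb1 had 63.8, 50.3 and 46.8 CPM in Mut libraries, against 40.55, 50.99 and 42.9 CPM in WT libraries (log2 fold change 0.24, SE 0.13, adjusted p = 0.4, edgeR). For both chains the groups overlapped, and replicate 1 of Mut was the highest library.

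Ciita, the transactivator, had 10.9, 9.76 and 8.90 CPM in Mut libraries, against 9.23, 9.03 and 8.04 CPM in WT libraries, with overlap (log2 fold change 0.15, SE 0.15, adjusted p = 0.671, edgeR). H2-DMa averaged 11.3 ± 1.20 CPM in Mut and 11.6 ± 1.94 CPM in WT libraries, and H2-DMb1 13.5 ± 2.24 CPM in Mut and 12.3 ± 1.02 CPM in WT libraries (SD, n = 3 each). Ctss averaged 6187 ± 243 CPM in Mut and 6326 ± 206 CPM in WT libraries (SD, n = 3 each; edgeR log2 fold change -0.04, SE 0.04, adjusted p = 0.697). The precision differed between these genes, and Ctss had the smallest error among the members tested. In all, 8 of the 10 genes passed the filter on low counts and 0 were called, while 6.3% of the 12500 genes tested were called. At an unadjusted p under 0.05 edgeR also gave 0 members, against 2246 of the 12500 genes tested, and DESeq2 called 0 members. The median log2 fold change of the 8 was 0.16, against -0.01 over all genes tested. With no filter on low counts H2-Ab1 and H2-Eb1 passed (adjusted p = 0.000818 and 0.0484, edgeR), and without replicate 3 of Mut H2-Ab1 passed (adjusted p = 0.0159, edgeR). Over all the alternatives the adjusted p of H2-Ab1 ran from 0.000818 to 0.602 and that of H2-Eb1 from 0.0484 to 0.662. H2-DMb2 (5 counts in the Mut libraries together and 12 in the WT libraries) and H2-Oa (7 counts in Mut and 10 in WT) were not tested.

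Replicate 1 of Mut was the highest of the 3 Mut libraries for Ciita, all 3 chains, H2-DMa, H2-DMb1 and Cd74. Of 14 listed regulators of Ciita and interferon gamma signalling, 13 were tested, 4 rose and 0 fell in Mut, while 6.3% of all genes tested were called. Their median log2 fold change was 0.17, against -0.01 over all genes. Socs3 and Socs1, feedback inhibitors of cytokine receptors, had log2 fold changes of 0.57 (SE 0.06) and 0.76 (SE 0.15), with adjusted p = 2.81e-07 and 0.00447 (edgeR). Jak2, a kinase of the interferon gamma receptor, rose by 0.26 (SE 0.05, adjusted p = 0.00161, edgeR) on the log2 scale. Irf1, named outside the rule for named genes, averaged 691 CPM in Mut and 636 CPM in WT libraries and did not pass. Ifng itself, the interferon gamma gene, had 3, 9 and 4 counts in Mut libraries and 0 in each of the other 15 libraries, and was not tested.

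Other genes of the class II region include interferon-induced genes of the class I pathway. Of 5 listed, 2 rose and 0 fell in Mut, while 6.3% of all genes tested were called. Psmb8, an immunoproteasome subunit, had a log2 fold change of 0.20 (SE 0.06, adjusted p = 0.0231, edgeR). Tap2, a peptide transporter of the class I pathway, had 0.23 (SE 0.06, adjusted p = 0.0118, edgeR). DESeq2 called 1 of the 5. Of 12 genes of the promoter assembly, Kat2b, a histone acetyltransferase, rose (log2 fold change 0.36, SE 0.07, adjusted p = 0.00152, edgeR) and the other 11 did not pass, a share near the 6.3% of all genes. None of 9 endosomal protease and processing genes and none of 9 class II turnover and transport genes was called by edgeR or DESeq2, with 3 and 1 at an unadjusted p under 0.05 in edgeR. Over all 12500 genes tested, 2246 had an unadjusted p under 0.05 in edgeR. The summed level of 10 dendritic cell markers was 25 to 32.1 CPM in Mut libraries and 13.1 to 14.4 CPM in WT libraries, with none of the 10 at 0 in either group. Most of that difference lay in the chemokine gene Ccl22 (15.7 CPM in Mut and 6.14 CPM in WT libraries) and in Batf3, a transcription factor (6.44 CPM in Mut and 2.33 CPM in WT libraries), the 2 of the 4 markers tested that were called. Zbtb46, a transcription factor of classical dendritic cells, had 3.33 CPM in Mut and 3.27 CPM in WT libraries and was not called (adjusted p = 0.989, edgeR). Of 12 B cell markers, the 10 left after removing Cd22 and Bank1, a choice made after seeing values, summed to 12.5 to 19.1 CPM in Mut and 19.4 to 23.9 CPM in WT libraries. Of those 10, 4 had counts enough for a test and none of the 4 was called, and the removed Cd22 was called lower in Mut. Markers of small peritoneal or monocyte-derived macrophages, which carry more class II than large peritoneal macrophages, summed to 10.5 to 12.6 CPM in Mut and 8.21 to 10 CPM in WT libraries, and of the 2 tested none was called. Markers of large peritoneal macrophages summed to 19.7 to 22.9 CPM in Mut and 26 to 30.8 CPM in WT libraries, with Prg4 called lower in Mut (adjusted p = 0.0352, edgeR). Ribosomal RNA genes held 0.399 to 1.03% of counts in Mut and 1.74 to 2.49% in WT libraries. The part of these in the class II levels was not tested, and in bulk RNA more or fewer cells of a type cannot be told apart from more or less RNA per cell.

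**Figure D2:**
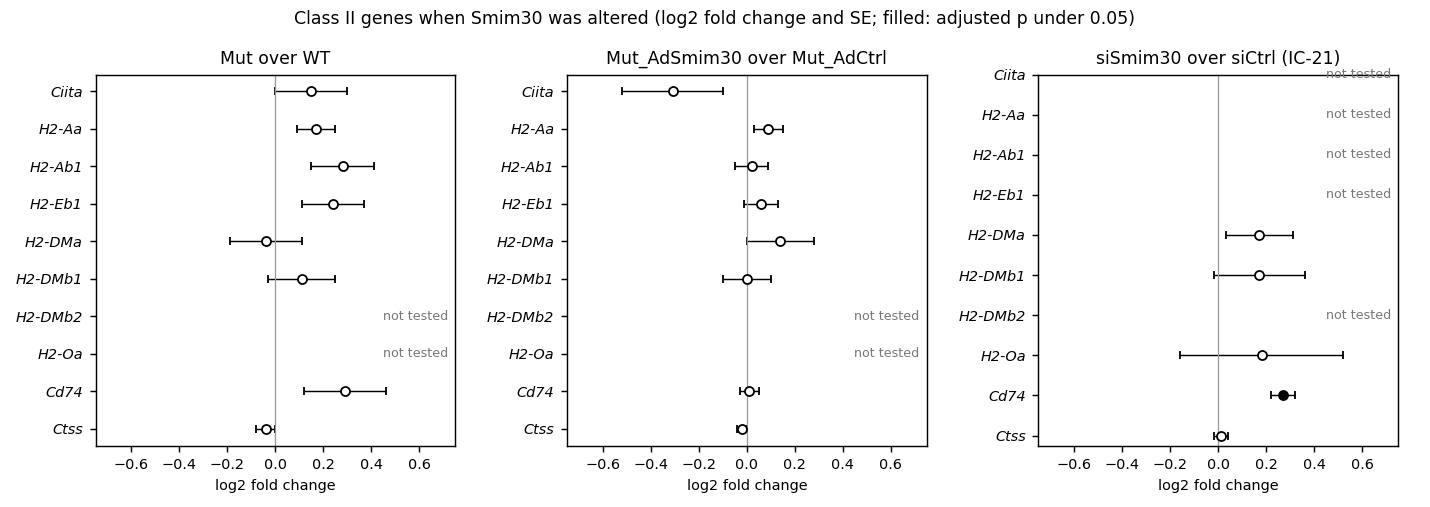
Log2 fold change (x axis) and SE (bars) of the 10 genes in Mut over WT, Mut_AdSmim30 over Mut_AdCtrl and siSmim30 over siCtrl, 3 libraries a group; filled points have an adjusted p under 0.05. Cd74 in IC-21 cells, at 0.27, is the only filled point in the 3 panels.

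The adenovirus comparison asks what the virus for SMIM30 overexpression changes in mutant macrophages, where the counted Smim30 RNA rose little. No class II gene tested passed here, and most fold changes were under 0.1 on the log2 scale. H2-Ab1 had 42.1, 48.2 and 41.3 CPM in Mut_AdSmim30 libraries, against 42.5, 42.9 and 45.2 CPM in Mut_AdCtrl libraries. H2-Aa had 56.1, 64.7 and 54.2 CPM in Mut_AdSmim30 libraries, against 56.2, 57.2 and 51.8 CPM in Mut_AdCtrl libraries. Cd74 had 200, 231 and 207 CPM in Mut_AdSmim30 libraries, against 215, 216 and 206 CPM in Mut_AdCtrl libraries. The groups overlapped for all 3 genes, and their log2 fold changes were 0.02 (SE 0.07), 0.09 (SE 0.06) and 0.01 (SE 0.04). Ciita, at low counts, had 4.04, 3.73 and 2.97 CPM in Mut_AdSmim30 libraries, against 5.13, 3.29 and 4.72 CPM in Mut_AdCtrl libraries (log2 fold change -0.31, SE 0.21, adjusted p = 0.678, edgeR). H2-Eb1 averaged 37.6 ± 3.51 CPM in Mut_AdSmim30 and 36.3 ± 3.10 CPM in Mut_AdCtrl libraries (SD, n = 3 each).

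H2-DMa averaged 13.4 ± 1.78 CPM in Mut_AdSmim30 and 12.3 ± 3.17 CPM in Mut_AdCtrl libraries, and H2-DMb1 15.7 ± 0.865 CPM in Mut_AdSmim30 and 15.7 ± 0.434 CPM in Mut_AdCtrl libraries (SD, n = 3 each). Ctss, which cuts the invariant chain, had 9533, 9796 and 9760 CPM in Mut_AdSmim30 libraries, against 10000, 9814 and 9804 CPM in Mut_AdCtrl libraries. Every Mut_AdSmim30 library was below every Mut_AdCtrl library, by little, and the test did not pass (log2 fold change -0.02, SE 0.02, adjusted p = 0.711, edgeR). Of the 10 genes 8 passed the filter and 0 were called by edgeR, at an unadjusted p under 0.05 also 0, and by DESeq2 0, while 1.43% of 12701 genes tested were called. The median log2 fold change of the 8 was 0.01, against 0.00 over all genes tested. H2-Oa had 0 counts in the Mut_AdSmim30 libraries and 2 in the Mut_AdCtrl libraries, and H2-DMb2 had 16 in Mut_AdSmim30 and 13 in Mut_AdCtrl libraries, so neither was tested. Among the listed pathway genes Ifi30, the lysosomal thiol reductase that opens disulfide bonds of antigens, rose (284 CPM in Mut_AdSmim30 and 246 CPM in Mut_AdCtrl libraries; log2 fold change 0.21, SE 0.03, adjusted p = 1.47e-05, edgeR). By contrast, none of the other 8 processing genes, the 13 regulators tested, the 12 assembly genes, the 9 turnover genes or the 5 region genes was called by edgeR. At an unadjusted p under 0.05 edgeR gave 4 assembly genes, 1 region gene, 0 regulators and 0 turnover genes, and DESeq2 called none of these. Over all 12701 genes tested, 1332 had an unadjusted p under 0.05 in edgeR. Fibroblast and mesothelial markers summed to 50.6 to 57.6 CPM in Mut_AdSmim30 and 93.3 to 114 CPM in Mut_AdCtrl libraries. All 7 of these markers that were tested were called lower in Mut_AdSmim30. Of 8 macrophage markers tested, Adgre1 and Itgam were called higher and the other 6 did not pass. The part of such cells in the class II levels was not tested.

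The siRNA comparison asks what lower SMIM30 changes in IC-21 cells. Cd74 rose with the siRNA. Its level was 335, 310 and 294 CPM in siSmim30 libraries, against 282, 248 and 262 CPM in siCtrl libraries. All 3 siSmim30 libraries were above all 3 siCtrl libraries, and the change was 1.21-fold (log2 fold change 0.27, SE 0.05, adjusted p = 0.000608, edgeR). The call was lost when all 18 libraries shared 1 estimate of the spread (adjusted p = 0.444, log2 fold change 0.27, SE 0.12). Over all alternatives the adjusted p of Cd74 ran from 1.51e-09 to 0.444 and its log2 fold change from 0.22 to 0.31. The other tested members did not pass. Ctss averaged 538 ± 20.4 CPM in siSmim30 and 539 ± 25.1 CPM in siCtrl libraries (SD, n = 3 each; edgeR log2 fold change 0.01, SE 0.03, adjusted p = 0.911).

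H2-DMa had 13.7, 11.04 and 13.2 CPM in siSmim30 libraries, against 10.9, 11.9 and 10.99 CPM in siCtrl libraries (log2 fold change 0.17, SE 0.14, adjusted p = 0.638, edgeR). H2-DMb1 had 17.3, 12.7 and 9.09 CPM in siSmim30 libraries, against 14.6, 10.01 and 11.6 CPM in siCtrl libraries (log2 fold change 0.17, SE 0.19, adjusted p = 0.763, edgeR). H2-Oa averaged 2.04 ± 0.574 CPM in siSmim30 and 1.81 ± 0.0541 CPM in siCtrl libraries (SD, n = 3 each; edgeR log2 fold change 0.18, SE 0.34, adjusted p = 0.886). The groups overlapped for these genes. Of the 10 genes 5 passed the filter, 1 rose and 0 fell, while 2.39% of the 13576 genes tested rose and 3.48% changed in either direction. The median log2 fold change of those 5 was 0.17, against 0.00 over all genes tested. Ciita, H2-Aa, H2-Ab1, H2-Eb1 and H2-DMb2 had too few counts for a test: the siSmim30 libraries together held 1, 2, 1, 0 and 7 counts, and the siCtrl libraries 0, 2, 1, 0 and 12.

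Of the listed regulators, Socs3 rose (log2 fold change 0.52, SE 0.06, adjusted p = 9.53e-07, edgeR), as did Ifngr1, a chain of the interferon gamma receptor (0.24, SE 0.07, adjusted p = 0.0256, edgeR). Lgmn, asparagine endopeptidase, an antigen processing protease, rose by 0.13 (SE 0.03, adjusted p = 0.0088, edgeR) on the log2 scale. Cd82, a tetraspanin found with class II in endosomes, fell by 0.26 (SE 0.05, adjusted p = 0.000105, edgeR), and Arl8b, a lysosome positioning GTPase, fell by 0.13 (SE 0.04, adjusted p = 0.0372, edgeR), both on the log2 scale. DESeq2 called 1 of the 13 regulators tested and 1 of the 9 turnover genes, where edgeR called 2 and 2. Over all genes tested in this comparison, edgeR called 3.48%. No gene of the promoter assembly or of the class II region was called by edgeR or DESeq2, with 3 and 2 at an unadjusted p under 0.05 in edgeR. Over all 13576 genes tested, 1927 had an unadjusted p under 0.05 in edgeR. The 10 B cell markers left without Cd22 and Bank1 were near the limit of detection. They summed to 0.239 to 0.341 CPM in siSmim30 and 0.116 to 0.167 CPM in siCtrl libraries. With Cd22 and Bank1 the sum went the other way, at 74.6 to 78.7 CPM in siSmim30 and 86 to 87.7 CPM in siCtrl libraries. Dendritic cell markers summed to 8.12 to 9.1 CPM in siSmim30 and 9.19 to 11 CPM in siCtrl libraries, with 5 of 10 at 0 in each group, Flt3 among them.

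Whether the Smim30 effects differ between experiments was tested in joint fits. The virus effect minus the mutation effect was -0.46 for Ciita (SE 0.25, adjusted p = 0.432, edgeR), -0.25 for H2-Ab1 (SE 0.17, adjusted p = 0.597) and -0.28 for Cd74 (SE 0.19, adjusted p = 0.608) on the log2 scale. None of the 8 members tested passed in edgeR, 0 had an unadjusted p under 0.05 and DESeq2 called 0, while 3.84% of 13422 genes passed. Of those 13422 genes, 1924 had an unadjusted p under 0.05 in edgeR. The siRNA effect minus the mutation effect was -0.02 for Cd74 (SE 0.19, adjusted p = 1, edgeR) and 0.05 for Ctss (SE 0.07, adjusted p = 0.832). Again no member passed in edgeR, 0 had an unadjusted p under 0.05 and DESeq2 called 0, while 2.51% of 14804 genes passed. Of those 14804 genes, 1970 had an unadjusted p under 0.05 in edgeR. Ciita and the I-A and I-E chains have too few counts in IC-21 cells for this difference to be estimated. The Cd74 call in IC-21 cells and its absence in Mut macrophages are therefore not shown to differ.

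Mut_AdCtrl and Mut macrophages share the genotype and differ by the control virus, the longer culture before LPS and the experiment they belong to, which cannot be told apart. The same Mut libraries served in the comparison with WT. Class II chains, Ciita and Cd74 fell, and cathepsin S rose. Ciita had 5.13, 3.29 and 4.72 CPM in Mut_AdCtrl libraries, against 10.9, 9.76 and 8.90 CPM in Mut libraries. The groups were far apart, and Ciita fell 2.27-fold (log2 fold change -1.18, SE 0.18, adjusted p = 1.56e-06, edgeR). H2-Ab1 had 42.5, 42.9 and 45.2 CPM in Mut_AdCtrl libraries, against 133, 104 and 95.5 CPM in Mut libraries. It fell 2.59-fold, the most of the members tested (log2 fold change -1.37, SE 0.14, adjusted p = 0.000233, edgeR). H2-Eb1 had 38.4, 37.8 and 32.7 CPM in Mut_AdCtrl libraries, against 63.8, 50.3 and 46.8 CPM in Mut libraries (log2 fold change -0.58, SE 0.11, adjusted p = 0.000424, edgeR). H2-Aa, the partner chain of H2-Ab1, had 56.2, 57.2 and 51.8 CPM in Mut_AdCtrl libraries, against 81.3, 66.4 and 62.8 CPM in Mut libraries. It fell 1.29-fold, with no overlap (log2 fold change -0.37, SE 0.08, adjusted p = 0.000887, edgeR).

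Cd74 had 215, 216 and 206 CPM in Mut_AdCtrl libraries, against 422, 302 and 305 CPM in Mut libraries (log2 fold change -0.72, SE 0.17, adjusted p = 0.0223, edgeR). The groups did not overlap, but the call was lost without replicate 1, 2 or 3 of Mut_AdCtrl (adjusted p = 0.0725, 0.0673 and 0.0769), and over all alternatives the adjusted p ran from 2.56e-12 to 0.0769. Ctss had 10000, 9814 and 9804 CPM in Mut_AdCtrl libraries, against 6447, 5967 and 6147 CPM in Mut libraries. It rose 1.56-fold, opposite to the invariant chain, which it cuts (log2 fold change 0.64, SE 0.03, adjusted p = 4.84e-17, edgeR). The peptide exchange chains did not follow the I-A and I-E chains. H2-DMa averaged 12.3 ± 3.17 CPM in Mut_AdCtrl and 11.3 ± 1.20 CPM in Mut libraries (SD, n = 3 each; edgeR log2 fold change 0.10, SE 0.16, adjusted p = 0.639). H2-DMb1 averaged 15.7 ± 0.434 CPM in Mut_AdCtrl and 13.5 ± 2.24 CPM in Mut libraries (SD, n = 3 each; edgeR log2 fold change 0.20, SE 0.13, adjusted p = 0.181). Without replicate 1 of Mut, H2-DMb1 passed (log2 fold change 0.34, adjusted p = 0.0315), and over all alternatives its adjusted p ran from 0.0315 to 0.48. Of 10 genes 8 passed the filter, 1 rose and 5 fell, in a comparison in which 53.6% of 12798 genes tested changed, 27.1% rose and 26.5% fell. The median of the 8 was -0.47, against 0.00 over all genes. The share of members that changed, 6 of 8, is to be read against that background.

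The transcripts of the I-A chains did not move in proportion in this comparison. The per-length ratio of H2-Ab1 to H2-Aa was 1.12, 1.11 and 1.29 in Mut_AdCtrl libraries, against 2.42, 2.31 and 2.25 in Mut libraries. The groups did not overlap (two-sided exact permutation p = 0.1, the smallest that 3 against 3 libraries allow). Mut_AdSmim30 libraries had ratios of 1.11, 1.10 and 1.13, and WT libraries 2.24, 2.14 and 2.15. The Mut_AdSmim30 and Mut_AdCtrl ratios overlapped (exact permutation p = 0.6), whereas every Mut ratio was above every WT ratio (exact permutation p = 0.1). The ratio of Cd74 to H2-Aa was 8.74 ± 0.241 in Mut_AdCtrl and 11 ± 0.733 in Mut libraries (SD, n = 3 each; exact permutation p = 0.1). The ratio of H2-Eb1 to H2-Aa was 1.29 ± 0.0497 in Mut_AdCtrl and 1.49 ± 0.0396 in Mut libraries (SD, n = 3 each; exact permutation p = 0.1). In all, 9 ratio comparisons were made over 3 ratios and 3 pairs of groups, and with this smallest p none can pass an adjustment over them.

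**Figure D3:**
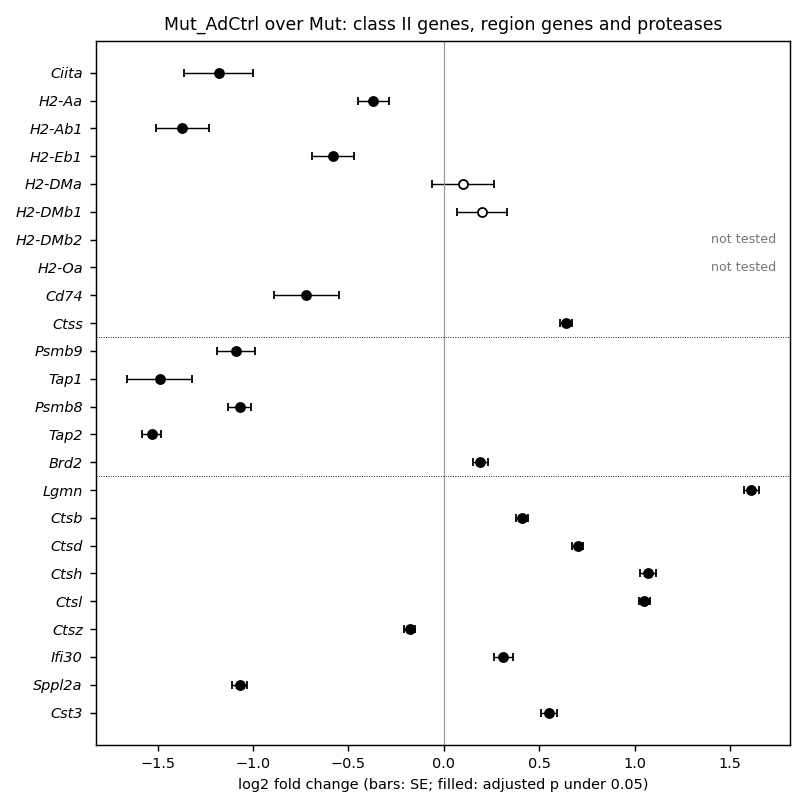
Log2 fold change (x axis) of Mut_AdCtrl over Mut with SE (bars), 3 libraries a group, for the class II genes (top), other genes of the class II region (middle) and endosomal processing genes (bottom); filled points have an adjusted p under 0.05. Ciita, the I-A and I-E chains and Cd74 lie left of 0 with Psmb9, Tap1, Psmb8 and Tap2, and Ctss lies right of 0 with 7 of 9 processing genes.

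Listed regulators of Ciita and other genes of the class II region were compared in the same libraries. Their part in the class II levels was not tested. Of the 13 tested regulators of Ciita, 6 fell and 3 rose in Mut_AdCtrl, while 26.5% of all genes tested fell and 27.1% rose. Socs1 fell by 3.32 (SE 0.17, adjusted p = 3.4e-16, edgeR) and Jak2 by 1.00 (SE 0.05, adjusted p = 1.55e-14, edgeR) on the log2 scale. Ifngr1 rose by 1.32 (SE 0.05, adjusted p = 6.29e-21, edgeR), as did Prdm1, a repressor of Ciita in plasma cells, by 1.11 (SE 0.05, adjusted p = 2.52e-19, edgeR), on the log2 scale. Irf1, one of the 6 regulators that fell, was named outside the rule after its values were seen. Irf1 had 457, 445 and 401 CPM in Mut_AdCtrl libraries, against 743, 682 and 649 CPM in Mut libraries (log2 fold change -0.70, SE 0.06, adjusted p = 1.4e-08, edgeR). The groups did not overlap. Of the 5 region genes 4 fell: Tap2 (-1.53), Psmb8 (-1.07), Psmb9, an immunoproteasome subunit (-1.09), and Tap1, a peptide transporter subunit (-1.49), all log2 fold changes. Brd2, a chromatin reader encoded in the same region, rose by 0.19 on the log2 scale.

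In this comparison 53.6% of all genes tested were called, 27.1% higher and 26.5% lower, so the counts of the lists that follow stand against a wide background. Of 9 endosomal processing genes 7 rose and 2 fell. Lgmn had a log2 fold change of 1.61 (SE 0.04, adjusted p = 2.24e-25, edgeR), cathepsin L (Ctsl) 1.05 (SE 0.03) and cathepsin H (Ctsh) 1.07 (SE 0.04). Sppl2a, the membrane protease that clears the last Cd74 stub, fell by 1.07 (SE 0.04, adjusted p = 2.26e-19, edgeR) on the log2 scale. Of the 9 turnover and transport genes 5 rose and 3 fell, among them March1, a ubiquitin ligase that removes class II from the surface, which fell by 0.53 (SE 0.08, adjusted p = 1.09e-06, edgeR) on the log2 scale. Of the 12 assembly genes 4 rose and 2 fell, a share near that of all genes, DESeq2 called 4, and the RFX subunits did not pass. Marker levels of other class II bearing cells also differed. The 10 B cell markers left without Cd22 and Bank1 summed to 2.06 to 2.93 CPM in Mut_AdCtrl and 12.5 to 19.1 CPM in Mut libraries. With those genes the sum went the other way, at 87.4 to 98.2 CPM in Mut_AdCtrl and 63.3 to 67.6 CPM in Mut libraries. Of 4 B cell markers tested, Cd22 was called higher in Mut_AdCtrl and Cd79a and Ighm lower. Dendritic cell markers summed to 7.06 to 7.58 CPM in Mut_AdCtrl and 25 to 32.1 CPM in Mut libraries. Ccl22 had 2.50 CPM in Mut_AdCtrl and 15.7 CPM in Mut libraries, Batf3 1.08 CPM in Mut_AdCtrl and 6.44 CPM in Mut libraries, and Zbtb46 3.06 CPM in Mut_AdCtrl and 3.33 CPM in Mut libraries. Flt3, Xcr1 and Siglech were at 0 in Mut_AdCtrl libraries and each averaged under 1 CPM in Mut libraries. Markers of small peritoneal or monocyte-derived macrophages summed to 20 to 22.6 CPM in Mut_AdCtrl and 10.5 to 12.6 CPM in Mut libraries, 4 of the 5 tested being higher. Fibroblast and mesothelial markers summed to 93.3 to 114 CPM in Mut_AdCtrl and 210 to 247 CPM in Mut libraries. The part of these cells in the class II levels was not tested.

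**Figure D4:**
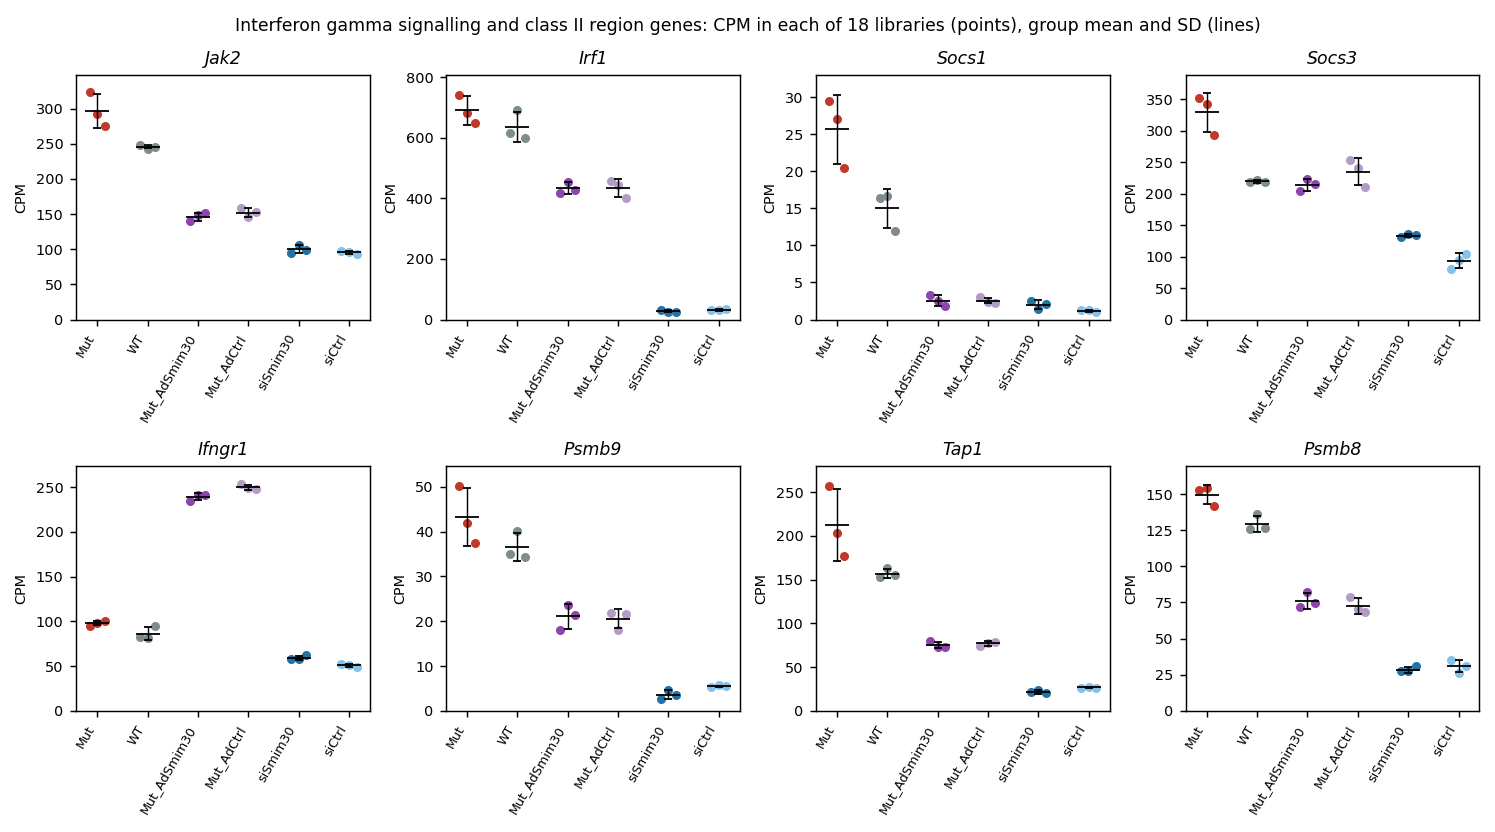
Level in CPM (y axis, linear from 0, a different scale in each panel) of 5 interferon gamma signalling genes and 3 genes of the class II region in 18 libraries; points are libraries, lines are the group mean and SD (n = 3). Socs1 and Socs3 are highest in Mut libraries, and Ifngr1 is highest in the 2 groups that received a virus.

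IC-21 cells and primary macrophages differ in cell source, transfection and experiment, which cannot be told apart, and the siCtrl and WT libraries used here also served in the comparisons above. In IC-21 cells the classical chains and their transactivator were at or near 0, while the invariant chain and the peptide exchange chains were present. Ciita had 0, 0 and 0 counts in siCtrl libraries, against 87, 77 and 90 counts in WT libraries. H2-Eb1 had 0, 0 and 0 counts in siCtrl libraries, against 382, 435 and 480 counts in WT libraries. With a floor of 3 counts over the group, Ciita was at least 79.8-fold lower and H2-Eb1 at least 408-fold lower in siCtrl cells than in WT cells. H2-Aa had 0, 2 and 0 counts in siCtrl libraries, against 563, 557 and 668 counts in WT libraries, a ratio of 843-fold lower with a 95% counting interval of 233 to 6970. H2-Ab1 had 0, 1 and 0 counts in siCtrl libraries, against 851, 806 and 970 counts in WT libraries, 2480-fold lower with a 95% counting interval of 444 to 97900. The intervals cover counting error only. The siSmim30 libraries of the same line gave 1, 0 and 0 counts for Ciita, 2, 0 and 0 for H2-Aa, 0, 0 and 1 for H2-Ab1 and 0 in all 3 for H2-Eb1.

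Cd74 and the peptide exchange chains, in contrast, had CPM in the range of WT. Cd74 had 282, 248 and 262 CPM in siCtrl libraries, against 268, 302 and 266 CPM in WT libraries, and the groups overlapped. H2-DMa had 10.9, 11.9 and 10.99 CPM in siCtrl libraries, against 10.5, 13.8 and 10.5 CPM in WT libraries, and H2-DMb1 14.6, 10.01 and 11.6 CPM in siCtrl libraries, against 13.4, 12.3 and 11.3 CPM in WT libraries. Whether these 3 genes are called depends on the scaling. With the composition factors of TMM they were lower in siCtrl, by log2 fold changes of -0.78 (SE 0.05, adjusted p = 3.04e-17), -0.73 (SE 0.15, adjusted p = 1.96e-05) and -0.76 (SE 0.15, adjusted p = 7.85e-06, edgeR). Scaled to library totals alone they were at -0.08, -0.02 and -0.06 (adjusted p = 0.146, 0.896 and 0.711), a scaling that moves the median of all genes by 0.70 on the log2 scale. Under either scaling their fold changes were under 2-fold, against at least 79.8-fold for Ciita.

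Ctss had 516, 535 and 566 CPM in siCtrl libraries, against 6090, 6421 and 6468 CPM in WT libraries. It was 11.7-fold lower by pooled CPM and 19.1-fold lower in the TMM fit (log2 fold change -4.26, SE 0.05, adjusted p = 1.54e-47, edgeR), with log2 fold changes from -4.32 to -3.55 over the alternatives. H2-Oa, the inhibitor chain, had 1.75, 1.84 and 1.85 CPM in siCtrl libraries, against 0.318, 0.234 and 0.447 CPM in WT libraries. It was the only member called higher in siCtrl (log2 fold change 1.68, SE 0.47, edgeR), from 12, 22 and 16 counts in siCtrl and 3, 2 and 5 in WT libraries. It passed the filter only through the siCtrl libraries, so this call carries no weight. BC051537, an antisense gene that overlaps H2-Oa, had 1, 10 and 8 counts in siCtrl and 0 in the WT libraries. The counting used strand, so reads of the 2 genes are kept apart as far as the strand marking holds. H2-Ob, the partner of H2-Oa, had 3, 2 and 1 counts in siCtrl and 20, 10 and 5 counts in WT libraries and was not tested. H2-DMb2 had 12 counts in siCtrl and 12 in WT libraries and was not tested.

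**Figure D5:**
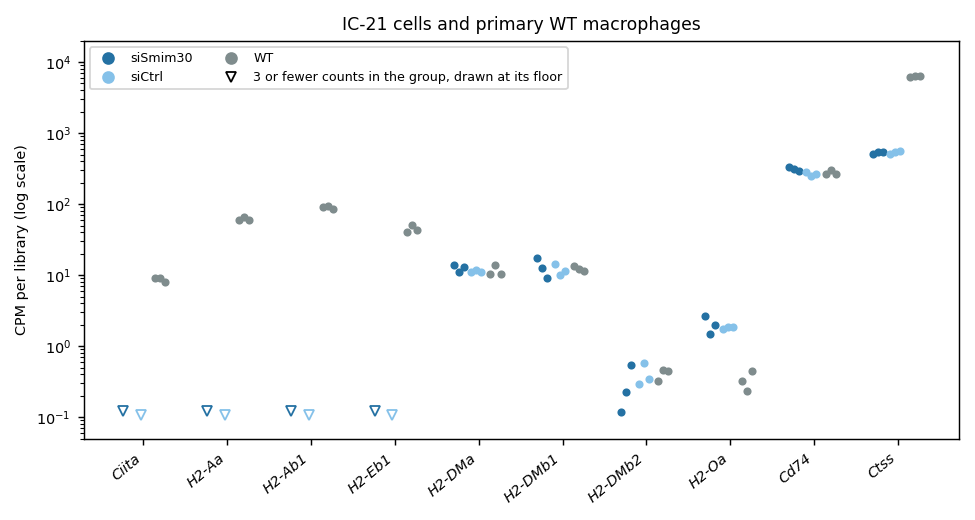
CPM per library on a log axis (y) of the 10 class II genes in siSmim30 and siCtrl IC-21 cells and in WT macrophages; points are libraries, and open triangles mark groups with 3 or fewer counts, drawn at the level that 3 counts over the group would give. Ciita, H2-Aa, H2-Ab1 and H2-Eb1 are triangles in both IC-21 groups, Cd74, H2-DMa and H2-DMb1 overlap WT on this CPM scale, and H2-Oa lies above WT.

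Of the 10 genes 9 passed the filter in this comparison, 8 were lower and 1 was higher, with 80.3% of 14066 genes called (40.1% higher and 40.2% lower). With library totals 6 members were called, 5 lower and 1 higher, and the calls over all genes were 9176 higher and 3031 lower, against 5645 and 5654 with TMM. Ciita, H2-Aa, H2-Ab1 and H2-Eb1 passed the filter only through the WT libraries and H2-Oa only through the siCtrl libraries, so the counts of lower and higher members carry no weight for these 5. Listed regulators of Ciita were compared as well, and their part in the Ciita level was not tested. All 13 tested regulators were called lower with TMM, and 12 of them had lower CPM in every siCtrl library than in every WT library, as did 21.7% of all genes tested. Irf8, the exception, overlapped. Irf1 averaged 31.8 CPM in siCtrl and 636 CPM in WT libraries (log2 fold change -5.03, SE 0.06, adjusted p = 2.31e-42, edgeR), and Jak2 95.8 CPM in siCtrl and 246 CPM in WT libraries (-2.06, SE 0.05). The promoter assembly differed from its coactivator: all 12 genes were detected in siCtrl cells, and for 9 of them every siCtrl library had a higher CPM than every WT library, as for 65.1% of all genes tested. With TMM 3 of the 12 were called higher and 6 lower, so their direction depends on the scaling. Rfx5, the DNA-binding RFX subunit, averaged 35.6 CPM in siCtrl and 22.9 CPM in WT libraries and was not called with TMM (log2 fold change -0.09). March1 averaged 2.97 CPM in siCtrl and 55.7 CPM in WT libraries (log2 fold change -4.90, SE 0.12, adjusted p = 8.57e-36, edgeR). Tap2 averaged 27.0 CPM in siCtrl and 183 CPM in WT libraries (log2 fold change -3.47, SE 0.06). B cell, dendritic cell and fibroblast markers differ here as well, not all in the same direction. The 10 B cell markers left without Cd22 and Bank1 summed to 0.116 to 0.167 CPM in siCtrl and 19.4 to 23.9 CPM in WT libraries. With those genes the sum was 86 to 87.7 CPM in siCtrl and 88 to 97.8 CPM in WT libraries. Fibroblast and mesothelial markers summed to 0.116 to 0.292 CPM in siCtrl and 232 to 256 CPM in WT libraries. Dendritic cell markers summed to 9.19 to 11 CPM in siCtrl and 13.1 to 14.4 CPM in WT libraries. Bank1 (27.5 CPM in siCtrl and 1.87 CPM in WT libraries) and Batf3 (6.68 CPM in siCtrl and 2.33 CPM in WT libraries) were called higher in siCtrl. The other tested markers of these lists were called lower. Which share of the class II RNA of WT libraries comes from such cells was not tested.

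Across the 6 groups the members fell into a few patterns. H2-Aa, H2-Ab1, H2-Eb1 and Ciita had their highest mean in Mut, the next in WT, lower means with either virus and levels at or near 0 in IC-21 cells. The Mut and WT levels overlapped for H2-Aa, H2-Eb1 and Ciita, the Mut_AdSmim30 and WT levels for H2-Aa and H2-Eb1, and the Mut_AdSmim30 and Mut_AdCtrl levels overlapped for all 4. Cd74 had the same order among primary cells, with IC-21 cells inside it: 343 ± 68.7 CPM in Mut, 313 ± 20.6 CPM in siSmim30, 279 ± 20.3 CPM in WT, 264 ± 17.2 CPM in siCtrl, 213 ± 16.6 CPM in Mut_AdSmim30 and 213 ± 5.44 CPM in Mut_AdCtrl libraries (SD, n = 3 each). Ctss was highest with a virus, intermediate in WT and Mut, and lowest in IC-21 cells. Its ranges overlapped between Mut and WT and between siSmim30 and siCtrl, and lay apart by little between the virus groups. H2-DMa and H2-DMb1 stayed between 11.3 and 15.7 CPM in all 6 group means. By the smallest root mean square difference of 6 group means of log2 CPM from the mean profile of H2-Aa, H2-Ab1, H2-Eb1 and Cd74, the most similar of 9379 genes were Jag1 (0.0526), Myrf (0.14), Fkbp9 (0.152), Tmem263 (0.18) and Cds1 (0.196). That mean profile averages genes lost in IC-21 cells with Cd74, which is kept, so no member lies as close to it: Ciita differed by 0.675, H2-Eb1 by 0.676 and Cd74 by 2.44. Jag1, a Notch ligand, had 147 CPM in Mut, 127 CPM in WT, 89.4 CPM in Mut_AdSmim30, 94.3 CPM in Mut_AdCtrl, 3.37 CPM in siSmim30 and 2.88 CPM in siCtrl libraries. The likeness rests on 6 points, mostly on the gap between primary cells and the line, and carries no test.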

How the data were processed

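RNA of 18 libraries was sequenced, strand-specific, per the labels' protocols. Per the file headers, the deposited values are unnormalized counts of assigned read pairs. The authors ran featureCounts 2.0.3 in reversely stranded mode over the exons of GENCODE M25 (GRCm38). Reads were processed with fastp, FastQC and HISAT2, per the submitters' processing notes. Gene lengths also came from the deposited files. The number in each header differed from that in its file's name, and each file was assigned to a sample by the series' record. Symbols were found for 55141 of 55401 identifiers. No library had mitochondrial counts.

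CPM used each library's total. Comparisons used edgeR 4.0.16 (R 4.3.3) with TMM, the default filter on low counts, the robust quasi-likelihood test on the libraries compared and Benjamini-Hochberg adjustment over all genes tested, with a threshold of 0.05. The procedure was tested on simulated data. Alternatives were RLE scaling, no filter, DESeq2 1.42.0, a replicate block, a joint fit, leaving out each library and, added after seeing the data, library totals. Replicates differed by more than sampling noise (chi-square per gene 1.67 to 5.24), and all counted separately. Named were all 10 members, up to 4 called genes by smallest p per pathway list and comparison, and the 5 genes closest to the mean profile of H2-Aa, H2-Ab1, H2-Eb1 and Cd74; Irf1, Irf8, Ifng, Rfx5, H2-Ob, H2-Ea-ps, BC051537, Tap1, Brd2 and marker genes were named beyond this, after their values were seen. A listed regulator is counted but not reported here by name. Members and lists were chosen with earlier results of these data known.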

Additional observations from a re-analysis of the deposited data

How the results depend on the processing

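No direction of a called value turned under any alternative; signs were not compared for genes that passed in neither setting. Of the results that answer a comparison, 177 alternative values stayed the same and 15 moved. With no filter 2 class II genes were called in Mut against WT. With all 18 libraries in 1 fit, 1198 genes were called in Mut against WT (788 in its own fit), 87 in Mut_AdSmim30 against Mut_AdCtrl (181) and 263 with 0 class II genes in siSmim30 against siCtrl (472 with 1). DESeq2 called 68 and 291 in the last 2 comparisons. With library totals the split was 269 higher and 226 lower in siSmim30 against siCtrl (324 and 148 with TMM), and 159 and 256 in the siRNA effect minus the mutation effect (187 and 185). Leaving out 1 library gave 469 to 957 genes in Mut against WT (469 without replicate 2 of Mut) with 0 to 1 class II genes. It gave 66 to 453 in Mut_AdSmim30 against Mut_AdCtrl (82 without replicate 1 and 453 without replicate 3 of Mut_AdCtrl, 106 without replicate 2 and 66 without replicate 3 of Mut_AdSmim30). It gave 309 to 422 in siSmim30 against siCtrl (309 without replicate 2 of siCtrl), 6274 to 6666 with 5 to 7 class II genes in Mut_AdCtrl against Mut, and 11074 to 11438 in siCtrl against WT. The virus effect minus the mutation effect had 350 to 747, and the siRNA effect minus the mutation effect 267 to 571 (571 without replicate 3 of Mut). The cause of these moves was not tested. Same-numbered libraries share only a number: their deviations correlated between -0.15 and 0.09, and 2, 2, 1, 0 and 2 of 3 libraries correlated best with their own number. With the replicate block 782, 253, 546, 6688 and 11191 genes were called in the 5 comparisons, with 0, 0, 1, 6 and 9 class II genes, and 490 and 415 in the 2 differences of effects. Depth limits H2-DMb2, H2-Oa and, in IC-21 cells, Ciita and the I-A and I-E chains.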
